A study of Homo sapiens with 12 samples.

Results

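The GADD45 stress sensors and the p38 kinase cascade were followed in OCI-Ly7, an established human cell line from a diffuse large B-cell lymphoma, after 24 hours with a Btk inhibitor. The set has 9 genes, chosen by readout because earlier results of these arrays showed GADD45A higher with treatment and MAP2K6 different between the 2 compounds. Of these genes, 7 had a probe set annotated with their symbol alone, and they were read by 16 of the 54613 probe sets tested. MAP2K3 was not analysed here because its 3 probe sets also carry a second symbol, and 1 further kinase of the set was not analysed here either. The 4 groups were vehicle, 1 µM ibrutinib, 10 µM ibrutinib and 1 µM PLS-123, each with 3 samples and each sample on an Affymetrix U133 Plus 2.0 array of its own, 12 arrays in all. Ibrutinib binds covalently to Btk, a tyrosine kinase that relays the B-cell receptor signal, and PLS-123 is the Btk inhibitor that the study compared with it. The comparisons ask how far these transcripts differed between treated and vehicle cells, and between the compounds at an equal dose. Nothing in the labels tells if the samples lettered A to C within a group came from separate cultures, so the p values measure only the spread between these samples.

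The p38 pathway is a relay of kinases that responds to stress and to cytokines, and in B cells also to the B-cell receptor. GADD45 proteins are induced by DNA damage and by withdrawal of growth signals, slow the cell cycle and bind MAP3K4, while MAP3K5, also called ASK1, responds to oxidative stress. These upper kinases switch on MAP2K3 and MAP2K6, which phosphorylate the p38 kinases, and p38 in turn activates MAPKAPK2 and MAPKAPK3, kinases that act on the stability of cytokine transcripts and on small heat shock proteins.

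Promoter windows are shown for the genes whose levels the comparisons turn on and that have an entry in the RefSeq promoter table (GRCh38.p14), with GADD45B as the gene of the same family that passed no comparison by its main probe set. Each window holds the 250 bases before the most upstream start in the table, 5′ to 3′ on the strand of the gene. They lie at chr19:2475877-2476126 on the plus strand for GADD45B, chr6:136793092-136793341 on the minus strand for MAP3K5, chr17:69414447-69414696 on the plus strand for MAP2K6 and chr3:50611627-50611876 on the plus strand for MAPKAPK3. Capitals mark matches to the motifs searched.
GADD45B promoter window: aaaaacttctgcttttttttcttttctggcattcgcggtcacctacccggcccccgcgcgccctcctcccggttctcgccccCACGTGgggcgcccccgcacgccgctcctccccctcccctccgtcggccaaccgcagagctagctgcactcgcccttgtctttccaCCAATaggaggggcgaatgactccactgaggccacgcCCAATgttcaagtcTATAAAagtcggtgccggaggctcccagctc
MAP3K5 promoter window: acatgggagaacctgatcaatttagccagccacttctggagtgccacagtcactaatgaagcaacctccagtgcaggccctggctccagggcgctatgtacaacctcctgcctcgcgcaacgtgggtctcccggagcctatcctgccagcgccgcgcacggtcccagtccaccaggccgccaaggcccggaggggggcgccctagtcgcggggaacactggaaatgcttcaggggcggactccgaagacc
MAP2K6 promoter window: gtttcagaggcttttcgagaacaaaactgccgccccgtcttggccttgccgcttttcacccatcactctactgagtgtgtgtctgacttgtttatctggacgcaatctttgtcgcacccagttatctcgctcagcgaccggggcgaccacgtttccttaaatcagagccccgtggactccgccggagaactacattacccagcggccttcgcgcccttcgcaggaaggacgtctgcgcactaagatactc
MAPKAPK3 promoter window: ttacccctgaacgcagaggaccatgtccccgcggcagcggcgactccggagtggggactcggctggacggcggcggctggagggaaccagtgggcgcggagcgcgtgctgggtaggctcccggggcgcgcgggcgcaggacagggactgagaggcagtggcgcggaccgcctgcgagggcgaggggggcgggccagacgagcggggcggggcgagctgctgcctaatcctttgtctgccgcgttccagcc
The search covered both strands for the CCAAT box, the TATA box spelled TATAAA and the E-box spelled CACGTG. It also covered the AP-1 site, spelled TGACTCA, the cAMP response element, spelled TGACGTCA, the forkhead site, spelled TGTTTAC, and the ETS site, spelled CCGGAAG. The GADD45B window held 4 matches, none overlapping another: the E-box at 168 to 163 bases before the start, the CCAAT box at 82 to 78 and at 45 to 41, and the TATA box at 31 to 26. Among 35116 windows of the same length in the table, 32.01% held the CCAAT box, 10.72% the TATA box, 6.34% the E-box, 4.2% the AP-1 site, 1.65% the cAMP response element, 2.98% the forkhead site and 8.52% the ETS site. The windows of MAP3K5, MAP2K6 and MAPKAPK3 held none of these letters, and the same was true of the MAPK13 window, at chr6:36130263-36130512 on the plus strand. The promoter table gave 2 starts each for MAP3K5, MAP2K6 and MAPKAPK3, of which the second was not searched, and 1 start for GADD45B and for MAPK13. The GC content was 63.2% for GADD45B, 64.0% for MAP3K5, 55.6% for MAP2K6, 74.4% for MAPKAPK3 and 84.4% for MAPK13. A match is a description of the letters and no evidence of binding.

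Levels are log2 intensities, taken from the linear RMA values that the authors deposited, and differences are log2 differences from limma fitted to the 12 arrays, with Benjamini-Hochberg adjustment over all probe sets and an adjusted p under 0.05 counted as called. A gene is represented by the probe set with the highest mean, and a probe set is dim where its mean lies under 3.87, the median of all. No value is set against that of another probe set, since probe sets differ in brightness for the same amount of RNA. Where groups are said not to overlap, the share of all genes that separate likewise was not counted, so nothing is read from it. Of 8 B-cell markers, 7 were measured and none was dim, with means between 9.06 and 12.1. Their summed intensity ran from 15605 to 16293 with vehicle, 15750 to 16383 with 1 µM ibrutinib, 12303 to 12510 with 10 µM ibrutinib and 11881 to 12459 with PLS-123. A sum weighs the brightest probe sets most, and the markers did not move together. Against vehicle, 2 were called higher and 5 lower with PLS-123 (7.54% and 12.8% of all genes). With 10 µM ibrutinib, 1 was called higher and 3 lower (6.71% and 5.82%). Of the markers of other cells, 4 of 6 T-cell markers were dim (summed intensity 65.1 to 92.1 over the arrays), 2 of 4 measured myeloid markers (43.7 to 51.1) and 2 of 5 stromal and epithelial markers (120.1 to 186.7). The log2 difference between the 3′ and the 5′ control probe sets of ACTB, a sign of RNA integrity, was 2.64 ± 0.04 with vehicle, 2.67 ± 0.18 with 1 µM ibrutinib, 2.74 ± 0.08 with 10 µM ibrutinib and 2.93 ± 0.20 with PLS-123 (mean ± SD of 3 arrays). The same difference for GAPDH ran from 0.27 to 0.35 with vehicle and 0.24 to 0.31 with 1 µM ibrutinib. It was higher with 10 µM ibrutinib, 0.38 to 0.40, and with PLS-123, 0.44 to 0.47, and it was not entered in any fit. Each array reads the pooled RNA of its cells, so a change in every cell and a change in the share of cells that express a gene cannot be told apart.

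GADD45A, a brake on the cell cycle at the G2/M transition that is known to be driven by FOXO factors, had its lowest levels with vehicle and its highest with PLS-123. The vehicle arrays A, B and C read log2 levels of 8.49, 8.55 and 8.51, and the 1 µM ibrutinib arrays read 8.96, 8.76 and 8.59. The 10 µM ibrutinib arrays read 10.09, 10.05 and 10.02, and the PLS-123 arrays 10.25, 10.30 and 10.22. No pair of groups overlapped, and the order was vehicle, 1 µM ibrutinib, 10 µM ibrutinib and PLS-123. Within the 1 µM ibrutinib group array A stood highest and the SD was 0.19, against 0.03 to 0.04 in the other groups. The gene was chosen for this pattern, so its differences are given with their intervals and without a test. The log2 level with PLS-123 was 1.74 above vehicle (95% confidence interval 1.55 to 1.94), a fold of 3.35. With 10 µM ibrutinib it was 1.54 above vehicle (1.34 to 1.74), a fold of 2.91, and with 1 µM ibrutinib 0.26 above (0.06 to 0.46). At the equal dose of 1 µM, PLS-123 lay 1.49 above ibrutinib (1.29 to 1.68), a fold of 2.80. Among 19775 genes ordered by their log2 difference from vehicle, GADD45A stood at place 64 from the top with PLS-123, at 88 with 10 µM ibrutinib and at 426 with 1 µM ibrutinib. The gene was chosen for its rise, so these places are no support for that rise.

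GADD45B, the family member known as a target of NF-κB, stood at similar levels in the 4 groups by its main probe set. The vehicle arrays read log2 levels of 7.49, 7.58 and 7.50 and the 1 µM ibrutinib arrays 7.38, 7.59 and 7.38. With 10 µM ibrutinib the arrays read 7.55, 7.71 and 7.50, and the PLS-123 arrays 7.81, 7.40 and 7.63. All 4 groups overlapped, and the PLS-123 group was the most spread (SD 0.20). The log2 difference from vehicle was 0.09 with PLS-123 (-0.14 to 0.32, adjusted p = 0.644) and 0.06 with 10 µM ibrutinib (-0.17 to 0.30, adjusted p = 0.81). At 1 µM, PLS-123 minus ibrutinib was 0.16 (-0.07 to 0.39, adjusted p = 0.409), an interval that includes 0. All 4 probe sets of GADD45B gave a positive difference in that comparison, and 1 of them passed the threshold. One of the dimmer ones, 209305_s_at, read 5.49, 5.63 and 5.63 with 1 µM ibrutinib and 5.96, 6.03 and 6.04 with PLS-123, a log2 difference of 0.43 (adjusted p = 0.0231). The remaining pair gave 0.17 (209304_x_at, adjusted p = 0.251) and 0.27 (213560_at, adjusted p = 0.227), and the mean over the 4 probe sets gave 0.26 (adjusted p = 0.0219). The vehicle arrays of 209305_s_at read 5.90, 5.81 and 5.91, between the 2 compounds. From vehicle it differed by -0.29 with 1 µM ibrutinib (adjusted p = 0.916) and by 0.135 with PLS-123 (adjusted p = 0.481), neither of them called.

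**Figure D1:**
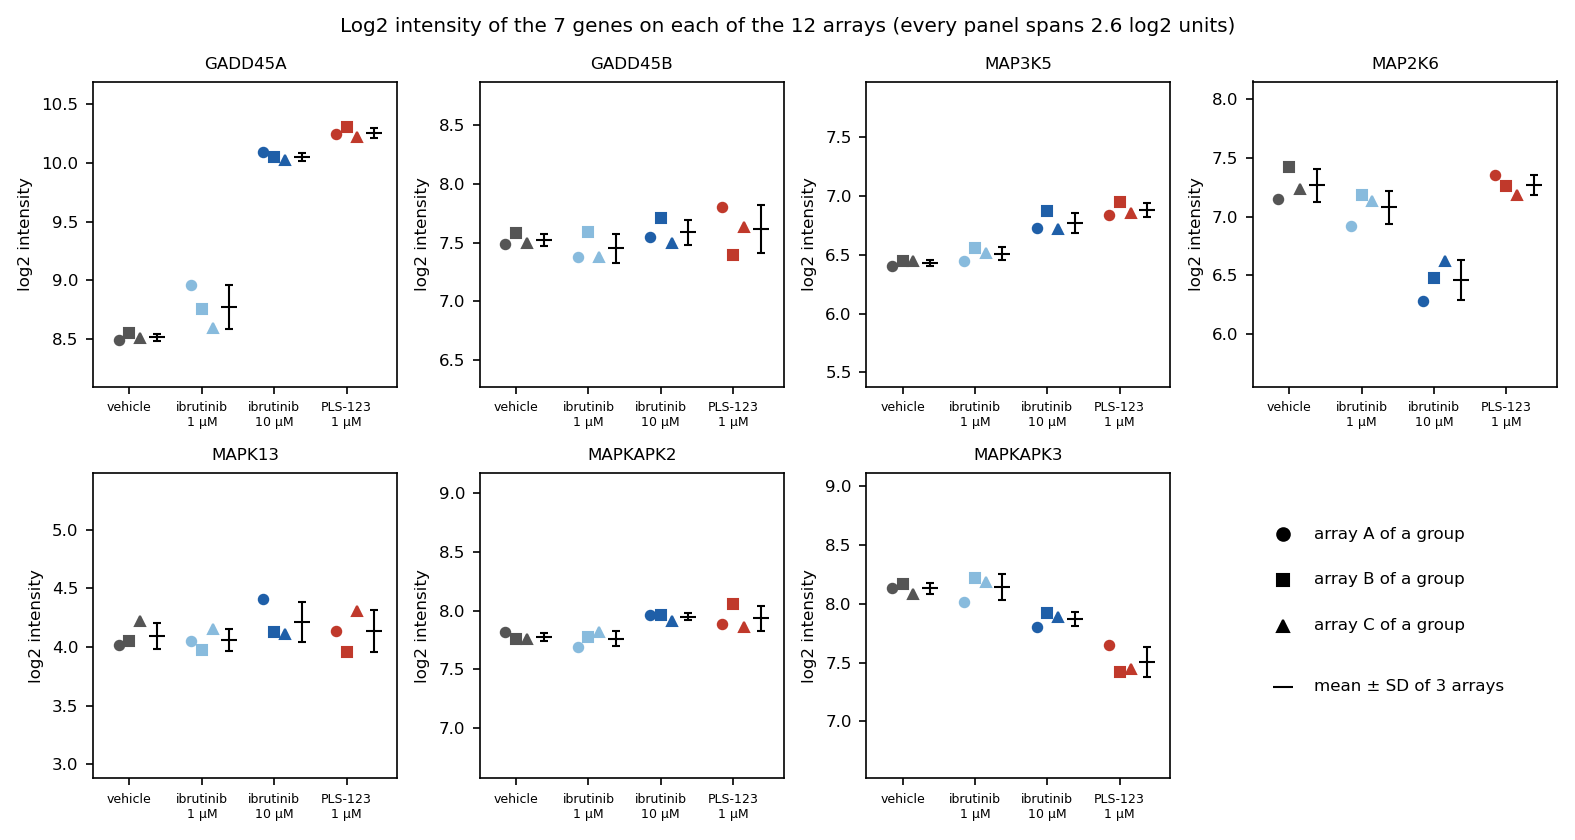
Log2 intensity (vertical axis) of the representative probe set of each of the 7 genes, by treatment group (horizontal axis); each point is 1 array and the bar beside a group is its mean ± SD over 3 arrays. The 3 PLS-123 arrays of GADD45A lie between 10.22 and 10.30 and those of vehicle between 8.49 and 8.55, while for MAP2K6 the 10 µM ibrutinib arrays, 6.28 to 6.63, lie below all others.

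MAP3K5, the apoptosis signal-regulating kinase at the top of the cascade that thioredoxin holds inactive, rose with PLS-123 and with 10 µM ibrutinib. The vehicle arrays read log2 levels of 6.40, 6.44 and 6.45 and the 1 µM ibrutinib arrays 6.45, 6.56 and 6.52. With 10 µM ibrutinib they read 6.73, 6.87 and 6.72, and the PLS-123 arrays 6.84, 6.95 and 6.86. The last pair of groups overlapped each other and lay above all vehicle and 1 µM ibrutinib arrays. The log2 difference from vehicle was 0.45 ± 0.08 (SE) with PLS-123, a fold of 1.37 (adjusted p = 0.00114), and 0.34 ± 0.08 with 10 µM ibrutinib, a fold of 1.27 (adjusted p = 0.0103). At 1 µM, PLS-123 minus ibrutinib was 0.37 (0.21 to 0.54, adjusted p = 0.0055). The difference of 1 µM ibrutinib from vehicle was 0.08 (-0.09 to 0.24, adjusted p = 0.939). The second probe set, 203837_at, read 5.42, 5.47 and 5.45 with vehicle and 6.49, 6.24 and 6.64 with PLS-123, a log2 difference of 1.01 (adjusted p = 0.000146). By that probe set PLS-123 exceeded 1 µM ibrutinib by 0.78 (adjusted p = 0.00146) and 10 µM ibrutinib exceeded vehicle by 0.56 (adjusted p = 0.015). The rise with 10 µM ibrutinib was no longer called without array B of that group (0.30, adjusted p = 0.0583). When the ACTB difference entered the fit, the rise with PLS-123 was 0.52 (adjusted p = 0.00783).

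MAP2K6, the kinase also called MKK6 that phosphorylates p38, had its lowest levels with 10 µM ibrutinib. The vehicle arrays read log2 levels of 7.15, 7.42 and 7.23 and the 1 µM ibrutinib arrays 6.92, 7.19 and 7.13. The 10 µM ibrutinib arrays read 6.28, 6.48 and 6.63, and the PLS-123 arrays 7.35, 7.26 and 7.19. The 10 µM ibrutinib arrays lay below all 9 others, which overlapped one another. The difference between the compounds chose this gene, so its values are a description. The log2 level with 10 µM ibrutinib was below vehicle by a difference of -0.80 (-1.04 to -0.57), a fold of 1.75. With PLS-123 the difference from vehicle was 0.00 (-0.24 to 0.24), and with 1 µM ibrutinib it was -0.19 (-0.43 to 0.05). PLS-123 at 1 µM minus ibrutinib at 10 µM, which are unlike doses, was 0.80 (0.57 to 1.04), the 8th highest difference of 19775 genes. The gene was chosen for a difference between the compounds, so this place is no support for that difference. At the equal dose of 1 µM the difference was 0.19 (-0.05 to 0.42), an interval that includes 0. The second probe set, 205699_at, was dim, and its differences from vehicle were -0.30 (-0.76 to 0.17) with 10 µM ibrutinib and 0.52 (0.05 to 0.98) with PLS-123.

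MAPK13, the p38 delta kinase, passed no comparison, and its mean log2 level of 4.13 was low, though above the dim limit. That mean lay within the range of the T-cell markers (2.28 to 4.87) and of the myeloid markers (2.33 to 4.33). It also lay within that of the stromal and epithelial markers (1.67 to 6.28). MAPK13 was therefore not shown to be expressed, and a lack of calls does not show an unchanged level. Its log2 levels ran from 4.02 to 4.22 with vehicle, 3.97 to 4.15 with 1 µM ibrutinib, 4.11 to 4.41 with 10 µM ibrutinib and 3.96 to 4.31 with PLS-123. All 4 groups overlapped. The log2 difference from vehicle was 0.12 (-0.12 to 0.36, adjusted p = 0.618) with 10 µM ibrutinib and 0.04 (-0.20 to 0.28, adjusted p = 0.863) with PLS-123. At 1 µM, PLS-123 minus ibrutinib was 0.08 (-0.17 to 0.32, adjusted p = 0.76). The second probe set, 210059_s_at, was dim, and its log2 differences from vehicle were 0.12 with 10 µM ibrutinib and -0.01 with PLS-123.

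MAPKAPK2, the kinase that p38 activates to stabilize cytokine transcripts, differed little between groups. The vehicle arrays read log2 levels of 7.82, 7.76 and 7.76 and the 1 µM ibrutinib arrays 7.69, 7.77 and 7.82. The 10 µM ibrutinib arrays read 7.96, 7.97 and 7.92, and the PLS-123 arrays 7.89, 8.06 and 7.86. The last pair of groups lay above the other pair on every array, with no difference called. In the dimmer probe sets of MAPKAPK2 each group of that pair overlapped the vehicle arrays. The log2 difference from vehicle was 0.17 (0.00 to 0.34, adjusted p = 0.23) with 10 µM ibrutinib and 0.16 (-0.01 to 0.33, adjusted p = 0.211) with PLS-123. At 1 µM, PLS-123 minus ibrutinib was 0.17 (0.00 to 0.35, adjusted p = 0.194). Its dimmer probe sets gave differences from vehicle of 0.08 (215050_x_at) and 0.05 (201461_s_at) with PLS-123.

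MAPKAPK3, the close relative of MAPKAPK2 that p38 also activates, fell with PLS-123. The vehicle arrays read log2 levels of 8.14, 8.17 and 8.08 and the 1 µM ibrutinib arrays 8.02, 8.22 and 8.19. Those with 10 µM ibrutinib read 7.80, 7.92 and 7.89, and the PLS-123 arrays 7.65, 7.42 and 7.44. The PLS-123 arrays were the lowest, the 10 µM ibrutinib arrays lay between them and the rest without overlap, and vehicle and 1 µM ibrutinib overlapped. The log2 difference of PLS-123 from vehicle was -0.63 ± 0.09 (SE), a fold of 1.55 (adjusted p = 0.00024). At 1 µM, PLS-123 minus ibrutinib was -0.64 (-0.83 to -0.45, adjusted p = 0.000277), a call that was lost under the methods' t-test (adjusted p = 0.0623). With 10 µM ibrutinib the difference from vehicle was -0.26 (-0.45 to -0.07, adjusted p = 0.0857), which did not pass and was called in 5 of 22 alternative settings. PLS-123 at 1 µM minus ibrutinib at 10 µM was -0.37 (-0.56 to -0.17, adjusted p = 0.101). The second probe set, 202787_s_at, read 6.07, 5.93 and 6.10 with vehicle and 5.81, 5.68 and 5.33 with PLS-123, a log2 difference of -0.42 (adjusted p = 0.0166). By it PLS-123 minus 1 µM ibrutinib was -0.50 (adjusted p = 0.00807). When the ACTB difference entered the fit, the fall with PLS-123 was -0.53 (adjusted p = 0.0148).

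**Figure D2:**
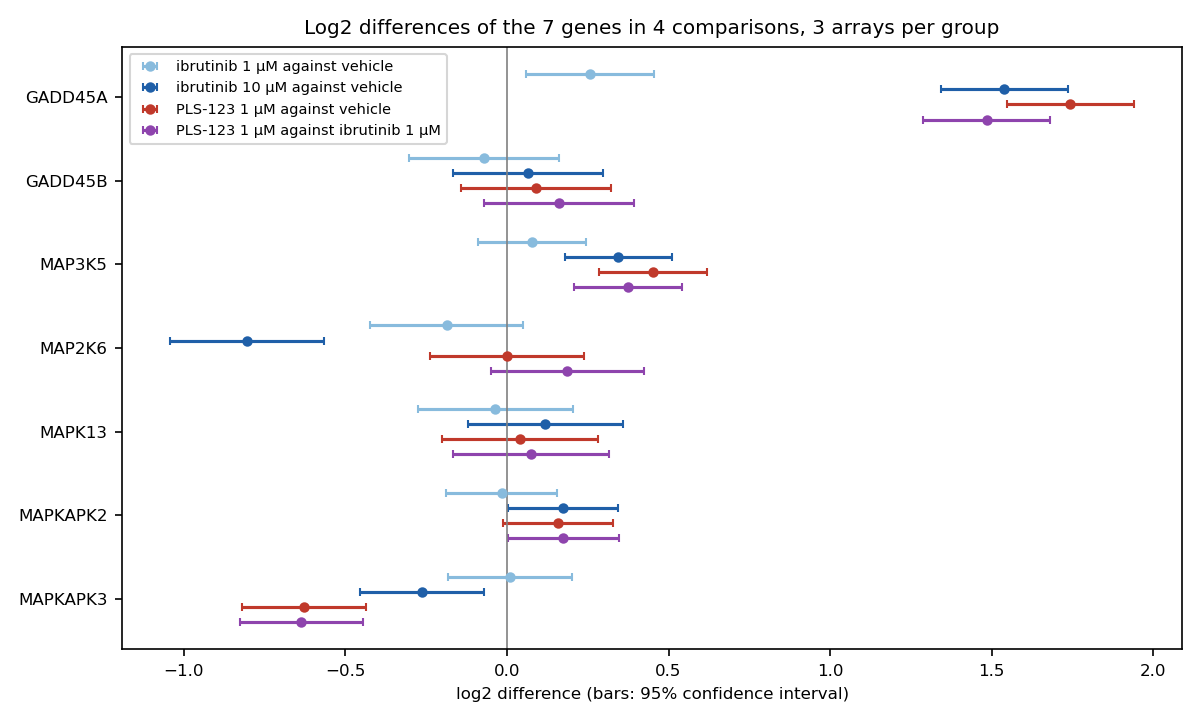
Log2 difference (horizontal axis, points with 95% confidence intervals) of the representative probe set of the 7 genes (vertical axis) in 4 comparisons of 3 against 3 arrays. GADD45A reaches 1.74 with PLS-123, MAPKAPK3 lies at -0.63 with PLS-123 and -0.64 against 1 µM ibrutinib, and MAP2K6 lies at -0.80 with 10 µM ibrutinib.

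Counted by comparison, 2 of the 7 genes were higher with PLS-123 than with vehicle (GADD45A and MAP3K5) and 1 was lower (MAPKAPK3), where 7.54% of 19775 genes were called higher and 12.8% lower. With 10 µM ibrutinib 2 were higher (GADD45A and MAP3K5) and 1 lower (MAP2K6), where 6.71% of all genes were higher and 5.82% lower. Under quantile normalization that split was 2 higher and 2 lower, with MAPKAPK3 added. With 1 µM ibrutinib none was called in either direction, as was 0% of all genes higher and 0% lower. In that comparison 1 of the 7 genes and 2943 probe sets had an unadjusted limma p under 0.05, the smallest adjusted p of any probe set was 0.282, limma with an intensity trend called 13 probe sets and the methods' t-test after adjustment called 0. PLS-123 against ibrutinib at 1 µM gave 2 higher (GADD45A and MAP3K5) and 1 lower (MAPKAPK3), where 5.78% of all genes were higher and 10.1% lower. PLS-123 against 10 µM ibrutinib gave 1 higher, MAP2K6, where 0.0708% of all genes were higher and 0.142% lower, and the count was 0 without array B of the 10 µM ibrutinib group. The higher against the lower dose of ibrutinib gave 1 higher (GADD45A) and 1 lower (MAP2K6), where 5.27% of all genes were higher and 4.46% lower. Quantile normalization gave 1 higher and 2 lower there. GADD45A and MAP2K6 are in these counts because they chose the set, so nothing is read from the counts. The median log2 difference of the 7 genes was 0.09 with PLS-123 and 0.12 with 10 µM ibrutinib, against -0.04 and -0.02 over all genes. The comparisons against vehicle share the vehicle arrays, and those with PLS-123 share its arrays.

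**Figure D3:**
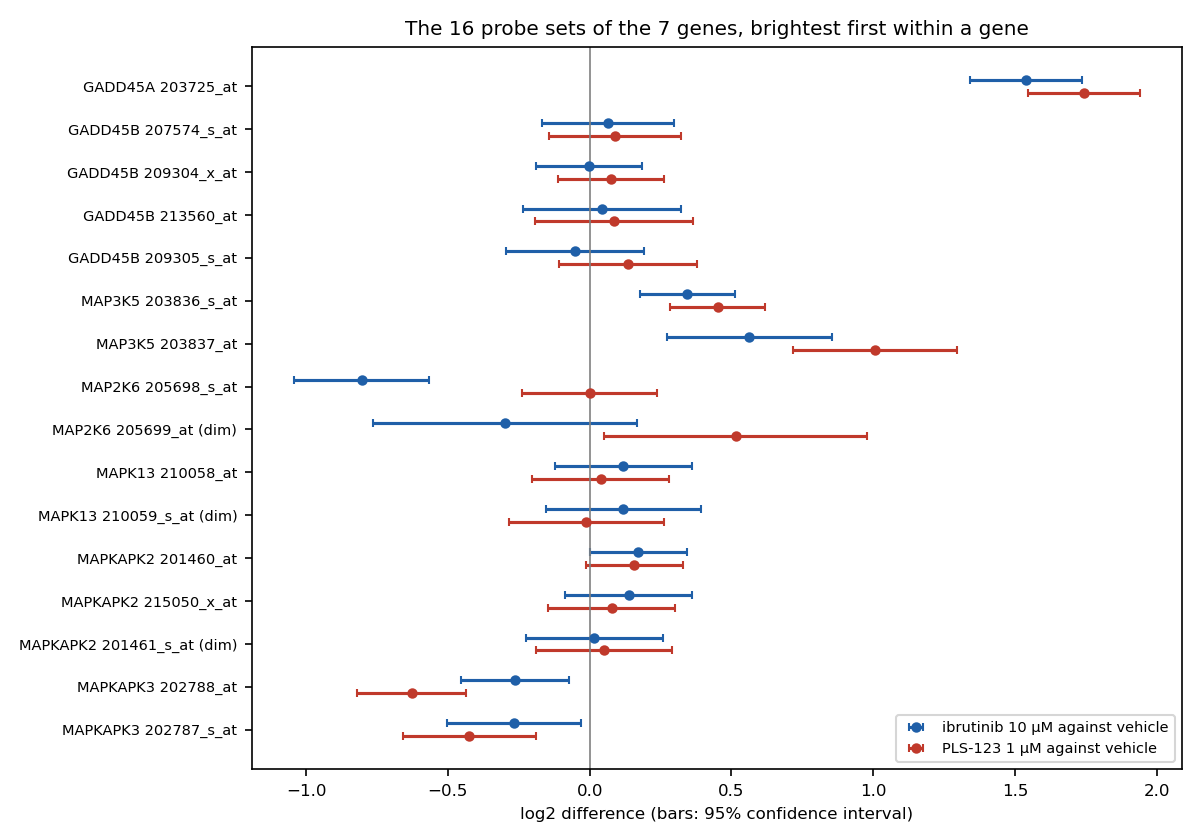
Log2 difference from vehicle (horizontal axis, points with 95% confidence intervals, 3 against 3 arrays) for all 16 probe sets of the 7 genes (vertical axis), with 10 µM ibrutinib and with PLS-123. Both MAP3K5 probe sets lie above 0 with each treatment and both MAPKAPK3 probe sets below it, whereas the 4 GADD45B probe sets all have intervals that include 0.

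The genes whose log2 levels followed GADD45A most closely over the 12 arrays were SLC2A5 (Pearson r = 0.995), a fructose transporter, OGFRL1 (0.994), FBXO15 (0.994), an F-box protein, UBE2E3 (0.993), a ubiquitin-conjugating enzyme, and GPLD1 (0.992), a phospholipase. They were the 5 highest of 12039 genes whose mean over all arrays is not dim, and since the 12 points form 4 treatment groups these values describe a shared group pattern. SLC2A5 had mean log2 levels of 10.88 with vehicle, 10.98 with 1 µM ibrutinib, 11.90 with 10 µM ibrutinib and 12.03 with PLS-123. FBXO15 read 3.48, 3.77, 6.65 and 6.71 in the same order, so it was dim in the first pair of groups and entered the comparison through the pair where it is high. The genes closest to MAP2K6 were MROH8 (r = 0.922), MYLIP (0.913), a ubiquitin ligase, APEH (0.910), ZNF286A (0.907) and PECAM1 (0.899), an adhesion molecule. MYLIP had mean log2 levels of 7.53 with vehicle, 7.45 with 1 µM ibrutinib, 7.10 with 10 µM ibrutinib and 7.68 with PLS-123.

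The rest of the cascade was read from 10 lists of 81 genes, of which 75 were measured and 3 were dim. At the equal dose of 1 µM, 8 of the 75 were higher with PLS-123 than with ibrutinib and 12 lower, where 5.78% of all genes were called higher and 10.1% lower. That background holds for each list at this dose. In place of these 20 calls, the methods' t-test made 6 and the fit with the ACTB difference made 10. The genes named below are given by the main fit and their representative probe set alone, and those lost in these alternatives are not marked. The lists had a median log2 difference of -0.11, against -0.02 over all genes. Against vehicle, 7 were higher and 13 lower with PLS-123 (7.54% and 12.8% of all genes), and 10 were higher and 5 lower with 10 µM ibrutinib (6.71% and 5.82%), while with 1 µM ibrutinib limma called 0, and 0 had an unadjusted p under 0.05. Under quantile normalization the split with PLS-123 was 11 higher and 10 lower against vehicle, and 9 and 9 against 1 µM ibrutinib. For PLS-123 at 1 µM against ibrutinib at 10 µM limma called 0 of the 75, of which 17 had an unadjusted p under 0.05, and limma with an intensity trend called 9.

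Among the family and partners of GADD45, 1 of 7 genes was higher and 1 lower with PLS-123 than with ibrutinib at 1 µM. Of all genes, 5.78% were called higher and 10.1% lower. PCNA, the replication clamp that GADD45 proteins bind, rose by a log2 difference of 0.38 (adjusted p = 0.0273). CCNB1, the cyclin of mitotic entry, was lower by a difference of -0.45 (adjusted p = 0.00319), and it was also lower against vehicle, at -0.35 (adjusted p = 0.0125). GADD45GIP1, a mitochondrial protein that binds GADD45 proteins, was lower against vehicle at -0.31 (adjusted p = 0.0233).

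With PLS-123 against ibrutinib at 1 µM, 5.78% of all genes were called higher and 10.1% lower. Of 9 regulators of GADD45 transcription, 2 were higher and 2 lower in that comparison. One of the 2 was EGR1, an immediate early factor, whose mean log2 levels of 3.67 with vehicle and 3.65 with 1 µM ibrutinib were under the dim limit of 3.87, against 4.68 with 10 µM ibrutinib and 4.49 with PLS-123. Its difference of 0.84 (adjusted p = 0.000858) therefore rests on a dim baseline. MYC, which is known to repress GADD45A, rose by 0.27 (adjusted p = 0.0323). FOXO1, a forkhead factor, had a difference of -0.32 (adjusted p = 0.0197), and RELA, an NF-κB subunit, one of -0.34 (adjusted p = 0.016). For 10 µM ibrutinib against vehicle, MYC rose by 0.35 (adjusted p = 0.00821), and EGR1 differed by 1.00 (adjusted p = 0.000201) from the same dim baseline.

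Of 17 kinases and adaptors at the MAP3K level, 1 rose and none fell with PLS-123 against ibrutinib at 1 µM. Beside this, 5.78% of all genes were called higher and 10.1% lower, so nothing is read from the count. MAP3K1, which feeds the JNK branch, rose by 0.40 (adjusted p = 0.00422), and against vehicle it rose by 0.50 with PLS-123 (adjusted p = 0.000576) and 0.56 with 10 µM ibrutinib (adjusted p = 0.000272). TAOK3 was lower with PLS-123 than with vehicle, at -0.34 (adjusted p = 0.0263). MAP3K4, the kinase that GADD45 proteins bind, was higher with 10 µM ibrutinib than with vehicle, at 0.33 (adjusted p = 0.0485), and differed by 0.18 with PLS-123 (adjusted p = 0.261). It was named after its values were seen. Among 6 measured regulators of MAP3K5, 1 rose and 1 fell. TRAF6, which activates MAP3K5, rose by 0.58 (adjusted p = 0.00208) and DAXX, which also binds it, had a difference of -0.55 (adjusted p = 0.000511) at the equal dose.

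In the JNK branch, 1 of 6 measured genes rose and 1 fell with PLS-123 against ibrutinib at 1 µM. The shares of all genes called there were 5.78% higher and 10.1% lower. JUN, the AP-1 subunit, rose by 0.66 (adjusted p = 0.00879), and MAP2K4, which phosphorylates JNK and p38, had a difference of -0.35 (adjusted p = 0.0253). MAPK11, the p38 beta kinase, was lower at -0.37 (adjusted p = 0.0461). Of 8 phosphatases that act on p38, PTPN7, a tyrosine phosphatase of blood cells, was lower at -0.33 (adjusted p = 0.0145). DUSP10, a dim probe set of a p38 and JNK phosphatase, was higher against vehicle with PLS-123, at 0.53 (adjusted p = 0.0309), and with 10 µM ibrutinib, at 0.57 (adjusted p = 0.0307).

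Of 9 measured transcription factors that p38 phosphorylates, 4 fell in transcript level and none rose with PLS-123 against ibrutinib at 1 µM. Over all genes 10.1% were lower and 5.78% higher, and the median of the list was -0.19. The arrays read RNA, so the activity of p38 and the phosphorylation of these factors were not measured. DDIT3, the CHOP factor of the stress response, had a log2 difference of -0.95 (adjusted p = 9.25e-05). ELK4, a serum response cofactor, was at -0.73 (adjusted p = 6.75e-05), MEF2D, a factor of B-cell responses, at -0.69 (adjusted p = 0.00188), and USF1, an E-box factor, at -0.44 (adjusted p = 0.018). The same 4 were lower with PLS-123 than with vehicle, where 12.8% of all genes were lower, with DDIT3 at -1.08 (adjusted p = 2.26e-05). Against vehicle, 3 of them were also lower with 10 µM ibrutinib, where 5.82% of all genes were lower. These were DDIT3 at -0.76 (adjusted p = 0.000571), ELK4 at -0.50 (adjusted p = 0.00167) and MEF2D at -0.70 (adjusted p = 0.00171). Of 5 other kinases that p38 switches on, limma called 0 in each of the 6 comparisons, and at most 4 had an unadjusted p under 0.05, in the comparison of the ibrutinib doses. The share of all genes called in 1 direction ran from 0% to 12.8% over these comparisons, so nothing is read from a count of 0 among 5.

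Among 6 measured substrates of MAPKAPK2, 2 rose and 1 fell with PLS-123 against ibrutinib at 1 µM. Over all genes 5.78% were called higher and 10.1% lower. LSP1, a leukocyte actin-binding protein, rose by 0.64 (adjusted p = 0.000128) and CDC25B, a phosphatase of mitotic entry, by 0.60 (adjusted p = 0.00049). ZFP36, which destabilizes cytokine transcripts, had a difference of -0.51 (adjusted p = 0.00501). The same 3 were called for 10 µM ibrutinib against vehicle, where 6.71% of all genes were higher and 5.82% lower. LSP1 was at 0.39 (adjusted p = 0.00671), CDC25B at 0.58 (adjusted p = 0.000625) and ZFP36 at -0.47 (adjusted p = 0.0107). HSPB1, the small heat shock protein and named after its values were seen, rose by 0.81 with 10 µM ibrutinib against vehicle (adjusted p = 0.000211) and differed by 0.25 with PLS-123 (adjusted p = 0.15). PLS-123 minus 10 µM ibrutinib was -0.56 for HSPB1 (adjusted p = 0.0602). With the ACTB difference as a covariate, 10 of the 75 genes were called with PLS-123 against vehicle and 10 against 1 µM ibrutinib, in place of 20 each.

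**Figure D4:**
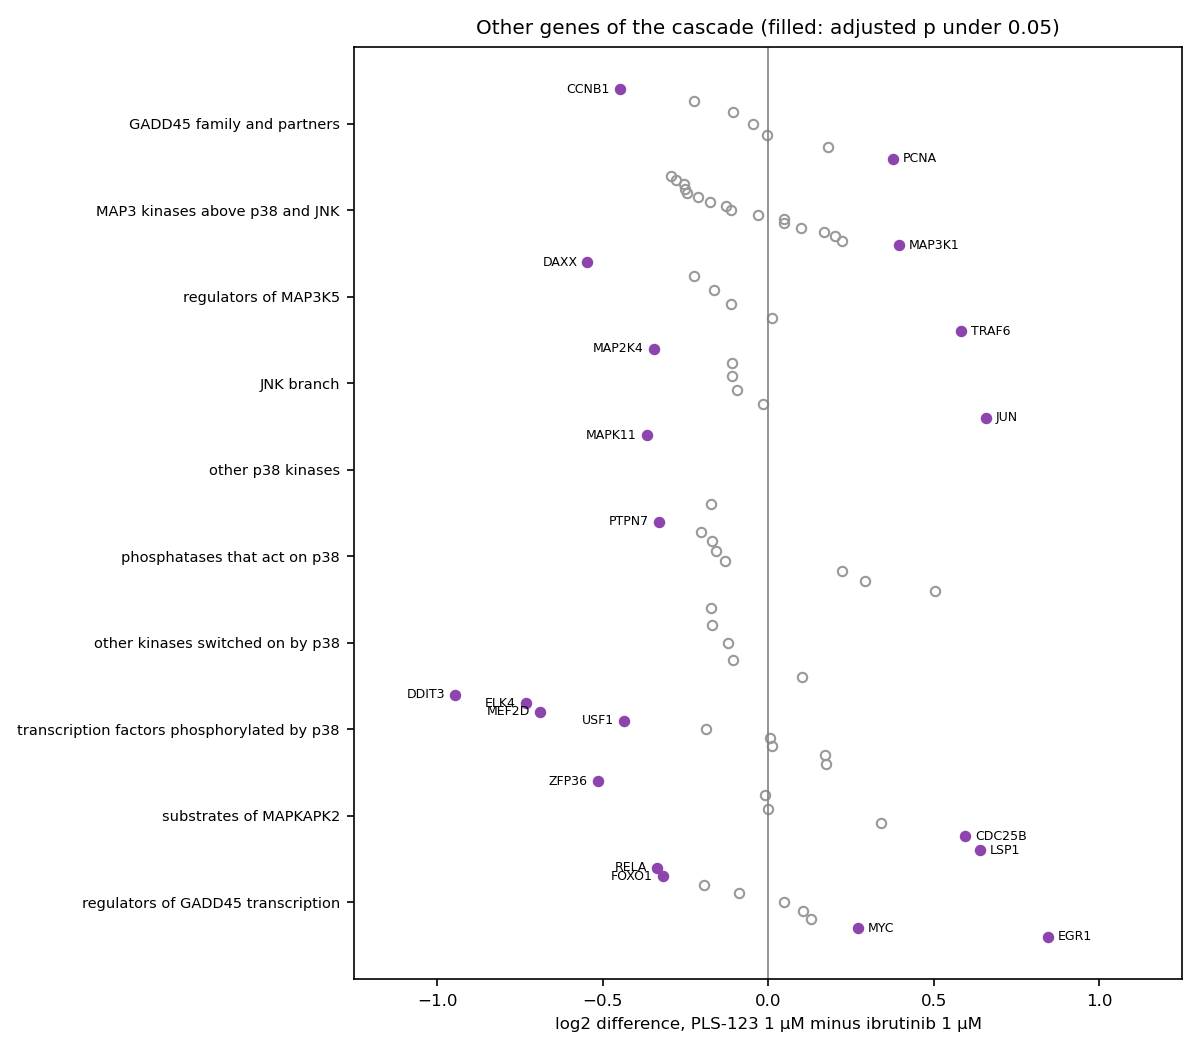
Log2 difference of PLS-123 minus ibrutinib at the equal dose of 1 µM (horizontal axis) for the 75 measured genes of the 10 lists (vertical axis), each point 1 gene from 3 against 3 arrays; filled points are named and have an adjusted p under 0.05. Called genes lie on both sides of 0, from DDIT3 at -0.95 to EGR1 at 0.84, whose level with 1 µM ibrutinib was dim.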

How the data were processed

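RNA of OCI-Ly7 cells was measured on 12 Affymetrix U133 Plus 2.0 arrays, 3 per group. The authors normalized the arrays with RMA (version not given in the sources used here) and deposited linear intensities, from 2.09 to 15751, with array medians from 14.2 to 14.8. The plan had assumed log2 values, so log2 was taken here with no pseudocount. Of 54675 probe sets, 62 controls were left out and 54613 tested. The platform annotation gave 41091 of them 1 symbol, 1801 several and 11721 none.

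limma 3.58.1 (R 4.3.3) was fitted with 1 mean per group (8 residual degrees of freedom, eBayes, two-sided, Benjamini-Hochberg over all probe sets of a comparison) and tested on simulated data. The number of arrays limits the precision. Alternatives were other tests, normalizations, filters and probe set summaries, the sample letter as a block, the ACTB difference as a covariate, and each array left out. The members and lists were chosen with earlier results of these data known. Genes outside the members were named by list, up to 4 called with the smallest adjusted p in PLS-123 against 1 µM ibrutinib or, failing 4, against vehicle, with exceptions stated where they occur.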

Additional observations from a re-analysis of the deposited data

How the results depend on the processing

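Across 22 alternatives no called log2 difference of a member changed sign. Counts of members called were 3 or within 1.5 times of it for PLS-123 against vehicle, for PLS-123 against 1 µM ibrutinib and for 10 µM ibrutinib against vehicle. MAP3K5 with 10 µM ibrutinib was lost without array B of that group (0.30, adjusted p = 0.0583), and MAPKAPK3 for PLS-123 against 1 µM ibrutinib under the methods' t-test (-0.64, adjusted p = 0.0623). For 10 µM ibrutinib against vehicle the methods' t-test called 3 higher and 0 lower, with MAPKAPK2 gained (adjusted p = 0.044) and MAP2K6, here given without a test, no longer among the calls. For PLS-123 against 10 µM ibrutinib, 1 member was called, 0 under the methods' t-test or limma on the 2 groups alone, 2 with an intensity trend or without dim probe sets, and 0 to 1 with each array left out (0 without 10 µM ibrutinib array B). For the ibrutinib doses, 2 members were called, 1 under the methods' t-test and 4 with an intensity trend, without dim probe sets or with the mean over probe sets. The main fit called MAP2K6 for PLS-123 against 10 µM ibrutinib, and GADD45A and MAP2K6 for the ibrutinib doses. Both genes chose the set, so nothing is read from the counts of members or from how they hold.

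Of the other cascade genes, PLS-123 against vehicle called 20, and 10 with the ACTB covariate. PLS-123 against 1 µM ibrutinib called 20, and 6 under the methods' t-test, 13 with the 2 groups alone and 10 with the ACTB covariate. PLS-123 against 10 µM ibrutinib called 0, and 9 with an intensity trend, 5 without dim probe sets, 1 with 1 probe set per gene or the mean over probe sets, and 0 to 1 with each array left out (1 without 1 µM ibrutinib array A). The ibrutinib doses called 12, and 3 under the methods' t-test and 20 with an intensity trend. The cause of these shifts was not tested.

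Residuals of same-letter arrays correlated between -0.255 and 0.224 over 18 pairs. Arrays of unlike letters were not compared, so these values do not settle if the letters pair the arrays. With the letter as a replicate block MAP3K5 rose by 0.45 with PLS-123 (adjusted p = 0.00193) and MAPKAPK3 differed by -0.63 (adjusted p = 0.000966), and no count moved by over 1.5 times. Quantile normalization and centring on control probe sets moved the median log2 difference of all probe sets by little, the furthest being -0.064 for 1 µM ibrutinib against vehicle with centring.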
